A study of Mus musculus with 16 samples.

Results

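The genes described are 10 nuclear receptors: the vitamin D receptor Vdr, the retinoid X receptors Rxra, Rxrb and Rxrg, the thyroid hormone receptors Thra and Thrb, the glucocorticoid receptor Nr3c1, the fatty acid receptor Ppara, the clock repressor Nr1d1 and the orphan receptor Esrrg. They were chosen by name, with earlier results of these data known. All 10 were found among the 18193 genes of the array by probe sets whose annotation names only that gene. Together they have 24 such probe sets of 34945. Each gene is represented by its brightest probe set over the 16 arrays, and the others are given beside it. Of the 10, Rxrb, Rxrg, Thrb and Nr1d1 have 1 probe set each, and the other 6 have several.

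Islets of adult mice were profiled on Affymetrix arrays to see how their transcripts differ when beta cells lose Insm1, a zinc finger transcription factor. The 8 mutant preparations carried RIPcreER with 1 floxed and 1 lacZ allele of Insm1 (Insm1flox/lacZ), and the 8 controls carried RIPcreER with 1 floxed and 1 wild-type allele (Insm1flox/+). RIPcreER is a tamoxifen-dependent Cre recombinase under the rat insulin promoter, which is active mainly in beta cells. Mutants and controls alike were given 25 mg of tamoxifen, released over 21 days, when 4 to 5 weeks old, and their islets were collected when they were 8 to 12 weeks old. All had a mixed C57BL/6, 129/ola and CBA/J background. The controls thus had Cre, tamoxifen and a floxed allele too and differ from mutants by their wild-type allele, while the lacZ allele was present in every cell type of the mutants. Values are log2 signals, differences are mutant minus control, n = 8 per group throughout, and ± is the SD for a group and the SE for a difference. Called means an adjusted p below 0.05 in limma's fit across all genes, with genotype alone and no pairing in the fit unless stated.

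Nuclear receptors are transcription factors that bind DNA through zinc fingers, and many of them are switched by small lipid-soluble ligands. Vdr, Thra, Thrb and Ppara bind most of their sites as a heterodimer with a retinoid X receptor, whereas the glucocorticoid receptor acts mainly as a homodimer that leaves the cytoplasm once it binds hormone. Nr1d1, also called REV-ERB alpha, represses genes of the circadian clock, and Esrrg belongs to the estrogen-related receptors, which drive genes of mitochondrial metabolism and have been linked to maturation of beta cells.

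The sequences before the RefSeq start sites of Vdr and Nr1d1 are shown because these were the only members whose difference passed the threshold in a fit reported here, Vdr with genotype alone and Nr1d1 only with pairs of arrays in the fit. Each is the 250 bases before the start, read 5′ to 3′ on the minus strand of GRCm38.p6, at chr15:97908297-97908546 for Vdr and at chr11:98775378-98775627 for Nr1d1. Capitals mark GC boxes (GGGCGG) and E-boxes (CANNTG) on either strand.
Vdr: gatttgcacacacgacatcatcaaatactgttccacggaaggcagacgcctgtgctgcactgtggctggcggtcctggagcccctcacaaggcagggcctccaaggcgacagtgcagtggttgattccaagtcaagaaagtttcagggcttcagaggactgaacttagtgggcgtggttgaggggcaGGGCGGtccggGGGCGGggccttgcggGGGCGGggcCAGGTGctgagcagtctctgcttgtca
Nr1d1: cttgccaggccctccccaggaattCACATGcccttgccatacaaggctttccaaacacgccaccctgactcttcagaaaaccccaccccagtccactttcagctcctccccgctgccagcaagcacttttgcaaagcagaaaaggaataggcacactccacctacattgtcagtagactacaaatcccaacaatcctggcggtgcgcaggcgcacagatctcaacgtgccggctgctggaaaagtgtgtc
The Vdr stretch has 3 GC boxes and 1 E-box, is 61.2% G and C, and has its GC boxes near the start. The Nr1d1 stretch has 0 GC boxes and 1 E-box and is 54.8% G and C. In RefSeq windows of 300 bases, from 250 before to 50 after the start, a GC box was present in 35.7% of all 32851 promoters and an E-box in 72.3%, so both are common. The search matched 15 promoter windows of 8 members. The nuclear receptor element AGGTCA was in a window of Rxra, Rxrg and Thrb (16.3% of all promoters), the E-boxes CATCTG in Rxra and CAGCTG in Rxrg (17.2% and 16.3%), and the forkhead motif TGTTTAC in Rxrb (3.65%). All 4 motifs were searched on both strands, and CATCTG and CAGCTG are forms of CANNTG. None of these 4 was in the windows of Vdr or Nr1d1, which says only that these letters are not there. In the same annotation Thra and Nr1d1 overlap by 1075 bases.

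Before the members, some facts of the preparations bear on every value. Insm1 read 10.94 to 11.60 in controls (median 11.24) and 10.71 to 11.30 in mutants (median 11.08), a difference of −0.25 ± 0.11 (adjusted p = 0.182, lower in 5 of 8 pairs), and 0.04 without pairs 1 to 3. Where its probes lie relative to the deleted part is not known from the labels, so the value does not check them. The mean of 8 measured beta-cell markers was lower in the mutants by 0.48 and in 8 of 8 pairs (6 of 8 markers fell), and that of 7 alpha-cell markers was higher by 0.27 in 8 of 8 pairs. The mean of 7 delta- and PP-cell markers, Rbp4 among them, was higher by 0.31 in 8 of 8 pairs, that of 9 stromal markers was higher by 0.26 in 7 of 8, and that of 6 duct markers differed by −0.28 and was lower in 8 of 8. The mean of 18 acinar markers ranged from 11.36 to 13.51 in controls and from 8.38 to 13.11 in mutants, and each mutant was below the control of its number. The mean of 17 immune-cell markers ranged from 7.28 to 8.12 in controls and from 7.34 to 8.69 in mutants. Mutant replicates 1, 2 and 3 were the highest for it (8.69, 8.01 and 8.66), with control replicate 1 (8.12), and Cd68, Cd79a and Itgam were below the lowest array median of 6.29. Endothelial markers differed by −0.02, with 0 called. Singly, 3 alpha-cell and 2 delta- and PP-cell markers were called higher and 0 lower. Of the stromal markers 2 were called higher and 1 lower, so they split in direction. Only 1 duct and 1 acinar marker were called lower, and only 1 immune-cell marker higher. In such whole islets fewer cells of a type and less RNA per cell cannot be told apart.

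Vdr, the receptor for the hormonal form of vitamin D, fell in mutant islets, and the other 9 members were not called with genotype alone. In that fit the share of 1 in 10 is near the 8.76% of all genes that were called (4.66% lower, 4.10% higher). With the replicate numbers as a block, 2 of the 10 were called, Vdr and Nr1d1, beside 17.6% of all genes. The differences of the other 9 ran from −0.11 to 0.38, and the median over the 10 was 0.02 against −0.01 over all genes.

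Vdr read 10.32, 10.75 and 10.91 in controls (lowest, median and highest) and 9.71, 10.38 and 10.54 in mutants. All controls but replicate 7, which was low at 10.32, lay above every mutant array, and mutant replicates 1 and 7 were the lowest at 9.71 and 9.87, so the groups overlapped. The means were 10.70 ± 0.20 and 10.25 ± 0.30, and the difference was −0.45 ± 0.12, or 1.37-fold lower (95% interval −0.70 to −0.20, adjusted p = 0.0236). All 8 pairs went down, and 13.0% of all genes went 1 way in every pair. The second Vdr probe set fell alike, from 10.21 ± 0.19 to 9.77 ± 0.29 (−0.44 ± 0.12, adjusted p = 0.0291 over probe sets). These 2 were the only called probe sets of the members' 24, against 6.86% of all probe sets. With the replicate numbers as a block, 3 were called, the third being that of Nr1d1, against 13.9% of all probe sets.

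The fall of Vdr was uneven over the pairs. It was −1.13, −0.65 and −0.50 in pairs 1, 2 and 3, whose mutant arrays had the highest immune-cell signal, and between −0.45 and −0.12 in the other 5. Without pairs 1 to 3 the difference was −0.27 ± 0.13 and was not called (adjusted p = 0.336), where 4.55% of all genes were. Adjusted for the immune-cell mean it was −0.41 (adjusted p = 0.0574, with 8.23% of all genes called), and adjusted for the acinar mean −0.56 (adjusted p = 0.0115, with 11.4% called). Leaving out any 1 array kept the call (adjusted p from 0.012 to 0.0481). Mutant replicate 7, the second lowest for Vdr, had an immune-cell mean of 7.49, within the range of the controls. The part of other cells in the fall of Vdr was not tested further.

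**Figure D1:**
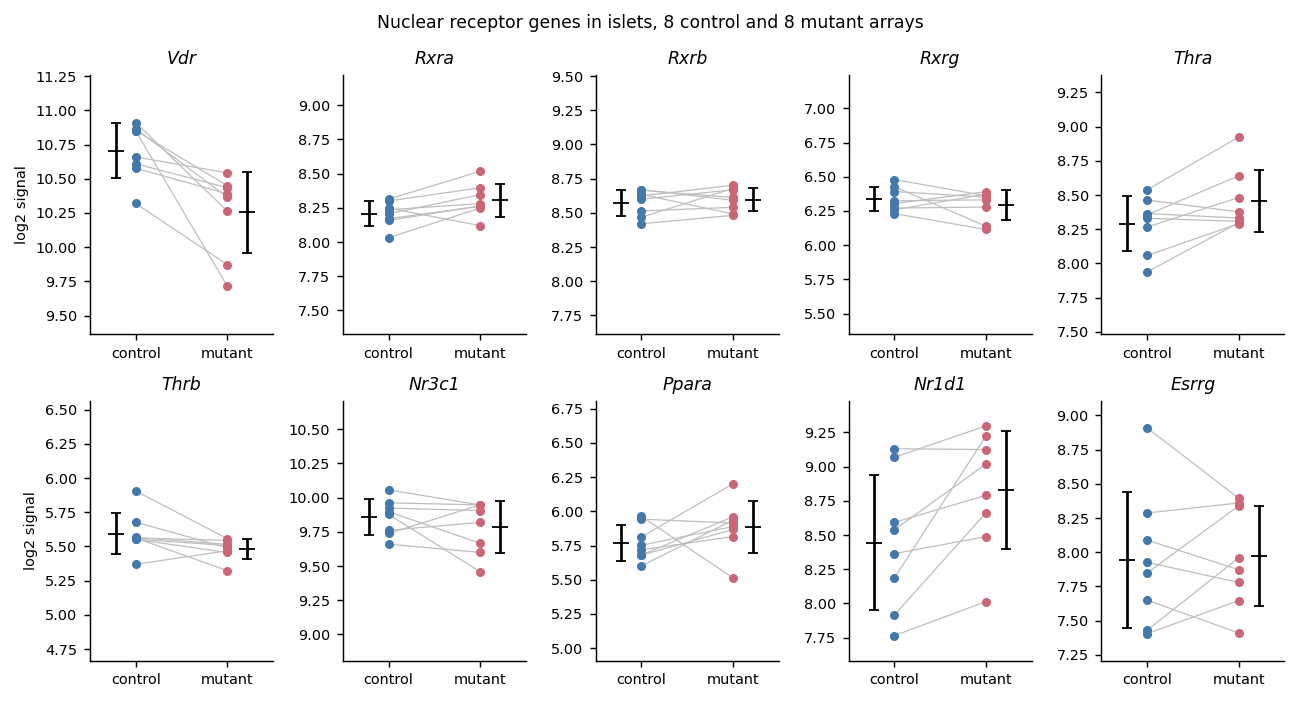
Log2 signal (y axis, each panel 1.9 units high) of the 10 nuclear receptor genes in 8 control (blue) and 8 mutant (red) arrays, with lines joining arrays of the same replicate number and bars giving mean and SD. Vdr falls along all 8 lines, Nr1d1 and Esrrg are the most spread out, and Rxrb is tightly grouped.

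The retinoid X receptors, the shared partners of Vdr and of the thyroid and fatty acid receptors, were close between the groups. Rxra read 8.03, 8.22 and 8.31 in controls and 8.12, 8.27 and 8.52 in mutants. Its groups overlapped although the mutant was higher in 7 of 8 pairs, and the difference was 0.10 ± 0.06 (interval −0.03 to 0.22, adjusted p = 0.381). Its second probe set differed by 0.16 ± 0.08 (adjusted p = 0.33 over probe sets), and the third, dim at 5.03 on average, by −0.09 ± 0.08 (adjusted p = 0.596). Rxrb read 8.57 ± 0.09 in controls and 8.60 ± 0.09 in mutants, and was higher in 5 of 8 pairs. The interval of its difference, −0.09 to 0.13, was the narrowest among the members. Rxrg, the isotype best known from muscle and brain, read 6.34 ± 0.09 and 6.29 ± 0.11, just about the array medians, with a difference of −0.04 ± 0.06 (adjusted p = 0.73). For these genes, a change of the size seen for Vdr lies outside the 95% intervals. For Rxrg this covers the measured signal only, since background can compress differences at its level.

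The thyroid hormone receptors did not pass the test either. Thra read 7.94, 8.34 and 8.54 in controls and 8.29, 8.36 and 8.92 in mutants, with control replicates 4 and 5 low and mutant replicate 6 the highest. Its difference was 0.17 ± 0.10 (interval −0.05 to 0.38, adjusted p = 0.381), and its other probe sets gave 0.16 and 0.17 (adjusted p = 0.272 and 0.305 over probe sets). Thrb lay below the array medians, where array background can compress differences, at 5.59 ± 0.15 in controls and 5.48 ± 0.07 in mutants. It was lower in 7 of 8 pairs (−0.11 ± 0.06, adjusted p = 0.341). Whether the 2 receptors differ in their response was not tested.

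Nr3c1, the glucocorticoid receptor, has 6 probe sets, whose differences ran from −0.12 to 0.07, all uncalled. The brightest read 9.66, 9.89 and 10.06 in controls and 9.46, 9.86 and 9.95 in mutants. The groups overlapped over most of their range, and the difference was −0.07 ± 0.08 (interval −0.24 to 0.10, adjusted p = 0.672). Ppara, the receptor that turns on fatty acid oxidation in fasting liver, read 5.77 ± 0.13 and 5.89 ± 0.19, again below the array medians. Its difference was 0.12 ± 0.08 (adjusted p = 0.448, higher in 6 of 8 pairs), and its other probe sets gave 0.17 and 0.06 (adjusted p = 0.17 and 0.563 over probe sets).

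Nr1d1 varied widely within both groups. It read 7.76, 8.45 and 9.13 in controls and 8.01, 8.90 and 9.30 in mutants, and the groups overlapped over most of this span. Its highest controls, replicates 1 and 3 at 9.13 and 9.07, sat beside high mutants of the same numbers at 9.12 and 9.30, and its lowest control and lowest mutant were both replicate 7. The difference was 0.38 ± 0.21 (interval −0.07 to 0.83, adjusted p = 0.325). With the replicate numbers as a block in the fit, which sets this shared variation aside, the same difference had an adjusted p of 0.0289 and was called, as were 17.6% of all genes in that fit. Adjusted for the immune-cell mean the difference was 0.19 (adjusted p = 0.665), and adjusted for the Y-linked mean 0.25 (adjusted p = 0.566). It was higher in the mutant in 7 of 8 pairs, by 1.04 in pair 4, 0.75 in pair 5 and 0.48 in pair 2, and by −0.01 in pair 1. The labels do not give the time of day at which islets were taken.

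Esrrg was spread as widely, from 7.40 to 8.91 in controls (median 7.89) and from 7.41 to 8.40 in mutants (median 7.92). Its pairs went 4 up and 4 down, between −0.51 and 0.53, and the mean difference was 0.03 ± 0.20 (interval −0.39 to 0.45, adjusted p = 0.962). Adjusted for the acinar mean it turned to −0.29 ± 0.19 (adjusted p = 0.362), and the mean of its 3 probe sets differed by 0.13 (adjusted p = 0.535). This interval was the widest among the members after that of Nr1d1. Its second probe set behaved otherwise, from 6.85 ± 0.38 to 7.27 ± 0.48 and higher in 7 of 8 pairs. That difference, 0.42 ± 0.20, was not called (adjusted p = 0.248 over probe sets, and 0.0547 with the replicate block), and the third probe set, at 5.12 on average, differed by −0.05 ± 0.07. The probe sets of Esrrg thus did not go together, and which transcripts each of them reads is not known from the labels.

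**Figure D2:**
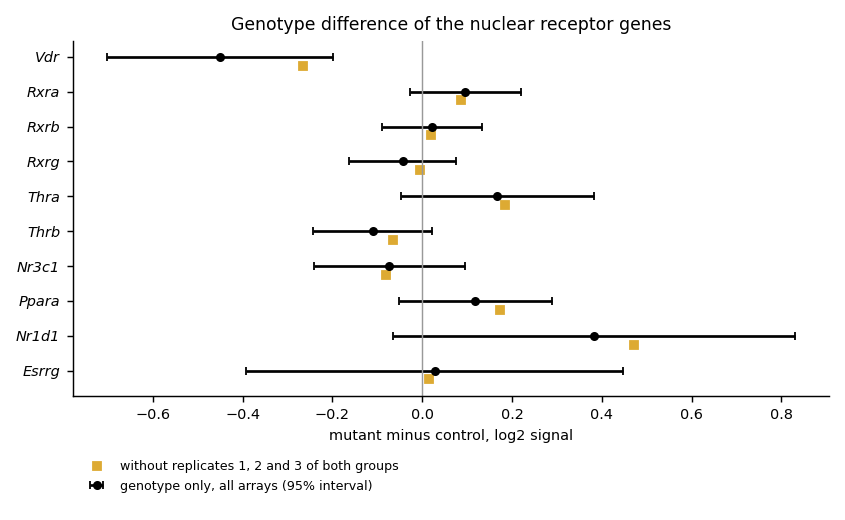
Difference of mean log2 signal, mutant minus control (x axis), for the 10 genes, as black points with 95% intervals from all 16 arrays and as yellow squares without replicates 1, 2 and 3 of both groups. The interval of Vdr, −0.70 to −0.20, lies below 0, the other 9 cross 0, and the square of Vdr is at −0.27.

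**Figure D3:**
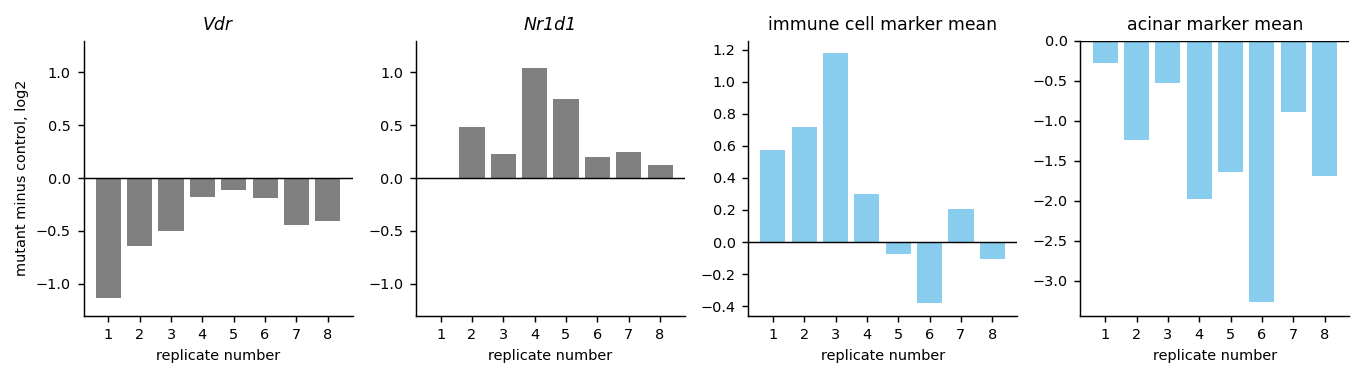
Difference of log2 signal between the mutant and the control array of each replicate number (x axis) for Vdr, Nr1d1 and the means of 17 immune-cell and 18 acinar markers; the y axes of the marker panels have scales of their own. Vdr is lower in every pair and lowest in pairs 1 to 3, where the immune-cell mean is highest in the mutant, and Nr1d1 is highest in pairs 4 and 5.

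By deviations from the group means over the 16 arrays, the genes most like Vdr were Slc16a10, a transporter of thyroid hormone and aromatic amino acids (Pearson r = 0.87), Pitpnm3 (0.86) and Mfsd13a (0.83). These values describe arrays that share pairs and preparation, and no p is given. The genotype differences of the 3 were 0.17, −0.20 and −0.24 (adjusted p = 0.286, 0.342 and 0.216), so they shared the array-to-array variation of Vdr and not a called fall. With the replicate block Mfsd13a was called lower (adjusted p = 0.0478). Among the other members the same measure ran from −0.24 for Rxra to 0.52 for Rxrg, with 0.40 for Nr1d1 and 0.35 for Rxrb.

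Across the wider family, 44 of 49 nuclear receptor genes were measured. Of the 34 that are not among the 10, 3 rose and 2 fell (14.7%, against 8.76% of all genes), and the median over the 44 was 0.00 on the log2 scale. Pparg, the receptor of adipose differentiation, fell the furthest, from 7.10 ± 0.28 to 6.02 ± 0.34 (−1.08 ± 0.14, adjusted p = 0.000112), with all mutant arrays below all controls, as for 2.29% of all genes in either direction. The mutant mean lies below the array medians, so background may limit the size of its fall. Pparg was also not tested without dim genes. That filter sets the mean over all 16 arrays against the median of probe sets naming 1 gene. Hnf4g fell from 5.43 ± 0.13 to 5.09 ± 0.15, below the array medians (adjusted p = 0.00464). Its paralogue Hnf4a, a regulator of liver and islet genes, rose from 8.69 ± 0.06 to 9.04 ± 0.13 (adjusted p = 0.000688), also without overlap, though 2 of its 4 probe sets were called. The orphan receptor gene Nr2c1 rose by 0.50 ± 0.13 (adjusted p = 0.0233). Nr4a2, an immediate early gene named here after its value was seen, rose by 1.07 ± 0.29 (adjusted p = 0.0253). Without pairs 1 to 3, Pparg, Hnf4a and Nr4a2 were called in the same direction (−1.31, 0.41 and 1.29). Hnf4g and Nr2c1 were not called there, at −0.28 and 0.52 (adjusted p = 0.0846 and 0.119). Adjusted for the immune-cell mean Nr4a2 was not called (0.94, adjusted p = 0.0655), and it kept its call in 12 of 16 fits that left out 1 array (adjusted p up to 0.0549). Nr2c1 was also not called once adjusted for the acinar mean, nor Hnf4g with the mean of its 3 probe sets.

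**Figure D4:**
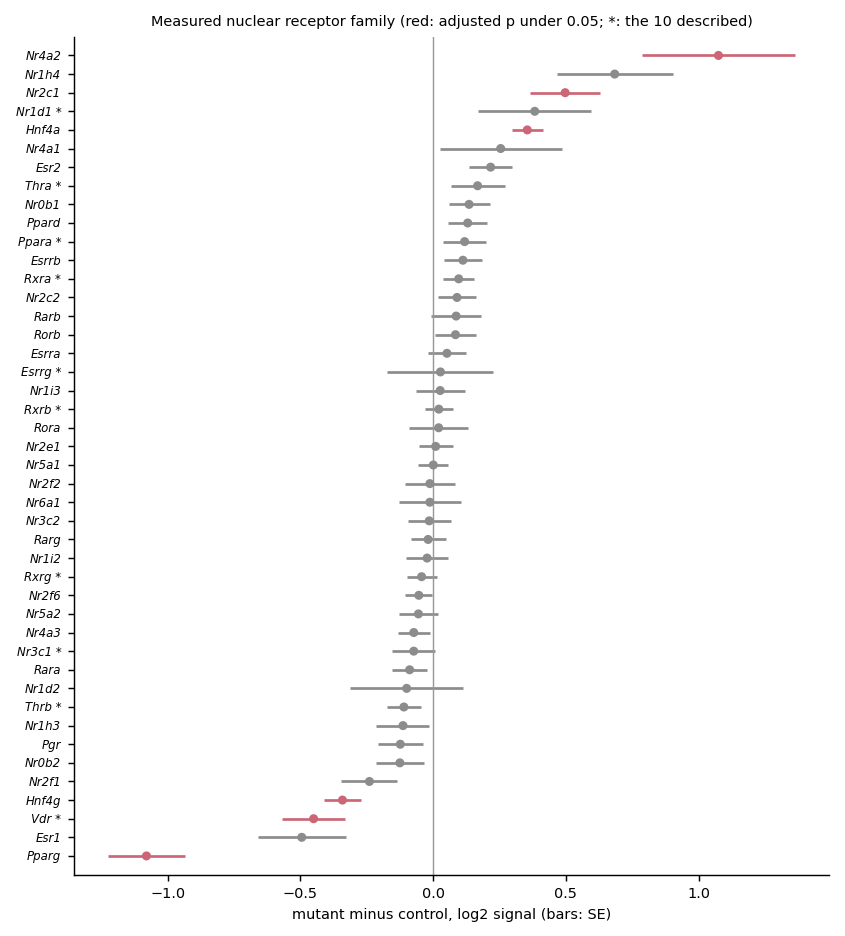
Difference of mean log2 signal, mutant minus control (x axis, bars are SE), for the 44 measured nuclear receptor genes in order of size, with called genes in red and the 10 described marked by an asterisk. Most receptors lie near 0, Vdr is the third lowest, and Pparg and Nr4a2 are at the ends.

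The lists from here on were, like the members, drawn up with earlier results of these data known. Among genes around the vitamin D receptor, 1 was called. Of 17 measured genes that make, carry or respond to vitamin D, 1 rose and 0 fell (5.88%, against 8.76% of all genes). This was Calb1, the calcium-buffering protein calbindin and a textbook vitamin D target in kidney, which went from 10.24 ± 0.30 to 11.71 ± 0.33, or 2.77-fold higher (1.47 ± 0.14, adjusted p = 5.11e-06). All mutant arrays lay above all controls, and 3 of its 4 probe sets were called higher. Calb1 thus rose where Vdr fell. Cyp24a1, which inactivates vitamin D and is another classical target, differed by −0.10 ± 0.08 from a dim control mean of 5.93 (adjusted p = 0.496). Only 8 of the 17 genes passed the filter for dim genes, and changes of the others can be missed because background can compress them.

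Of 18 measured retinoid receptor and retinoid handling genes, 4 rose and 0 fell (22.2%, against 8.76% of all genes), with a median of 0.09. Without pairs 1 to 3, 2 rose, beside 4.55% of all genes called. The 4 were Aldh1a3, which makes retinoic acid (3.72 ± 0.50), the transglutaminase gene Tgm2 (0.65 ± 0.13), the retinol carrier gene Rbp4 (0.50 ± 0.13) and Fabp5, a fatty acid and retinoic acid binding protein (0.68 ± 0.19), with adjusted p = 0.000114, 0.00417, 0.0213 and 0.035. Fabp5 lost its call when any of 10 arrays was left out singly (adjusted p up to 0.0727). Rbp4 and Fabp5 lost theirs without pairs 1 to 3, at 0.48 and 0.49 (adjusted p = 0.0798 and 0.197). Rbp4 also lost its call when adjusted for the acinar mean, and Fabp5 when adjusted for the immune-cell mean. Of the 6 Tgm2 probe sets 2 were called, with differences from −0.09 to 0.74, and Rbp4 is also one of the delta- and PP-cell markers that were higher together. The retinoic acid receptor gene Rara differed by −0.09 ± 0.07 from a dim control mean of 6.16 (adjusted p = 0.5). Of the 18 genes only 8 passed the filter for dim genes.

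In the thyroid hormone list 1 of 13 measured genes rose and 0 fell (7.69%, against 8.76% of all genes). With the replicate block, which called 17.6% of all genes, 1 rose and 1 fell. Crym, a cytosolic protein that binds thyroid hormone, rose 2.71-fold, from 5.50 ± 0.33, below the array medians, to 6.94 ± 0.86 (adjusted p = 0.0046, higher in 8 of 8 pairs). In the glucocorticoid list 1 of 18 rose and 0 fell (5.56%, against 8.76% of all genes). With the block 1 rose and 1, Tat, fell. Hsd11b1, the enzyme that regenerates active glucocorticoid inside cells, went from 7.69 ± 0.11 to 8.43 ± 0.23 (0.74 ± 0.09, adjusted p = 4.91e-05), with all mutant arrays above all controls. The classical glucocorticoid targets Fkbp5 and Tsc22d3 differed by −0.15 ± 0.19 and −0.07 ± 0.12 (adjusted p = 0.732 and 0.798). Other genes of the list differed more. Tat was at −0.44 ± 0.14 (adjusted p = 0.068, and 0.0151 with the block). Errfi1 and Per1 were at 0.44 ± 0.23 and 0.39 ± 0.18, uncalled in both fits (adjusted p = 0.285 and 0.231 with genotype alone).

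Of 21 measured genes of fatty acid oxidation and Ppara action, 4 rose and 0 fell (19.0%, against 8.76% of all genes), with a median of 0.10. With the replicate block 7 rose and 1 fell (17.6% of all genes called), and 2 rose without pairs 1 to 3 (4.55% called). Acadvl, the first enzyme of long-chain oxidation, rose from 9.50 ± 0.14 to 10.02 ± 0.09 (adjusted p = 4.28e-05). Vnn1, a pantetheinase, rose 1.97-fold and Pdk4, which restrains pyruvate oxidation, 1.89-fold (adjusted p = 0.00507 and 0.0359). Acot2, a mitochondrial acyl-CoA thioesterase, rose 1.19-fold (adjusted p = 0.0175). Without pairs 1 to 3 Pdk4 and Acot2 differed by 0.84 and 0.25 and were not called (adjusted p = 0.15 and 0.173). With all arrays their differences were 0.92 and 0.25. Pdk4 was not called when adjusted for the immune-cell mean (adjusted p = 0.0881), nor Acot2 for the acinar mean (adjusted p = 0.0528), and Pdk4 lost its call when any of 10 arrays was left out singly (adjusted p up to 0.0716). Cpt1a, the entry step of mitochondrial oxidation, differed by 0.30 ± 0.22 (adjusted p = 0.505).

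Of 21 measured clock genes around Nr1d1, 2 rose and 1 fell (14.3%, against 8.76% of all genes), with a median of 0.01. Clock, which activates Nr1d1 together with its partner Arntl, fell from 9.66 ± 0.18 to 9.11 ± 0.27 (−0.55 ± 0.11, adjusted p = 0.00368), in 8 of 8 pairs and for 3 of its 4 probe sets. Nfil3, a repressor of the clock output, rose 2.15-fold (1.10 ± 0.26, adjusted p = 0.013). The kinase gene Csnk1e rose by 0.43 ± 0.11 (adjusted p = 0.0172), but was not called without pairs 1 to 3 (0.37, adjusted p = 0.108). Arntl differed by 0.30 ± 0.29, Per1 by 0.39 ± 0.18 and Dbp by −0.26 ± 0.36 (adjusted p = 0.622, 0.231 and 0.749). The SEs of Arntl and Dbp were wider than that of Nr1d1.

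Of 27 measured partners of the estrogen-related receptors and mitochondrial genes, 3 rose and 1 fell (14.8%, against 8.76% of all genes), with a median of 0.03. Cox6a2, a cytochrome oxidase subunit isoform of heart and muscle, fell 3.92-fold (−1.97 ± 0.30, adjusted p = 0.000449). The rises were small: 1.13-fold for the cytochrome oxidase subunit gene Cox4i1, 1.12-fold for the ATP synthase gene Atp5c1 and 1.11-fold for citrate synthase, Cs (adjusted p = 0.0176, 0.0217 and 0.0451). Adjusted for the acinar mean, and also without pairs 1 to 3, 0 rose and 1 fell (11.4% and 4.55% of all genes called). Cs lost its call when any of 13 arrays was left out singly (adjusted p up to 0.0858). Of 20 measured coregulators, 2 rose and 0 fell (3 and 2 with the block, and 1 and 0 without pairs 1 to 3). They were Nrip1, a corepressor of many receptors (0.30 ± 0.07, adjusted p = 0.0131, with 1 of its 6 probe sets called), and the deacetylase gene Sirt1 (0.34 ± 0.09, adjusted p = 0.0284). Sirt1 lost its call when any of 8 arrays was left out singly (adjusted p up to 0.06) and when adjusted for the immune-cell mean. Without pairs 1 to 3 Nrip1 and Sirt1 differed by 0.24 and 0.38 and were not called (adjusted p = 0.0999 and 0.113).

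**Figure D5:**
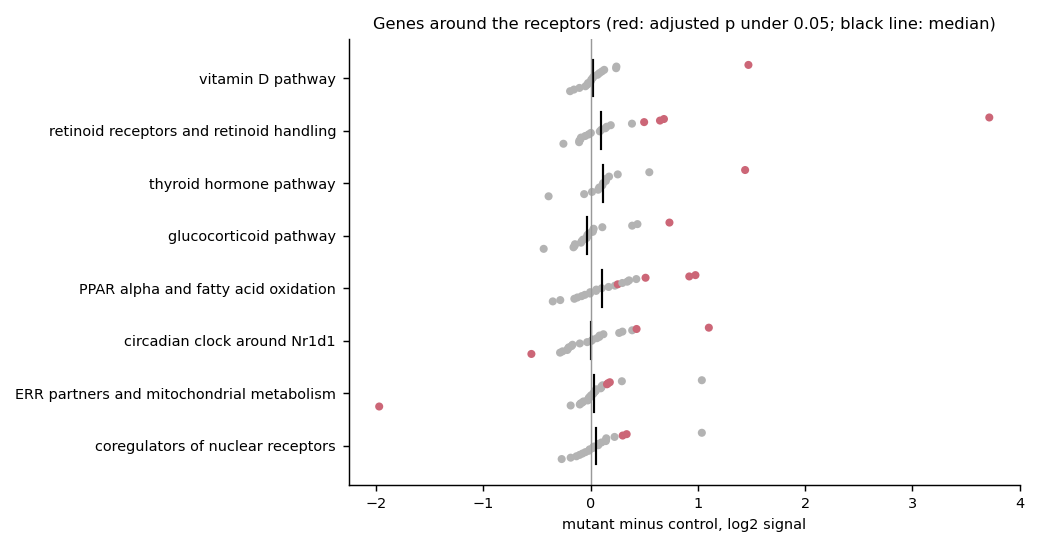
Difference of mean log2 signal, mutant minus control (x axis), of every measured gene in 8 lists around the receptors (y axis), with called genes in red and the median of each list as a black line. The medians lie between −0.03 and 0.12, and single genes such as Aldh1a3, Calb1, Crym and Cox6a2 stand far from them.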

How the data were processed

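Total RNA of each islet preparation was labelled from 150 ng with a 3′ IVT kit, per the labels' protocols. The values are the authors' deposited log2 signals of 45101 probe sets on 16 arrays, with background correction and normalisation not given in the sources used; the log base follows from the values (array medians 6.29 to 6.35, highest 15.39). Of these, 64 control probe sets, 932 naming several genes and 9160 naming none were left out, and symbols were updated through RefSeq (GRCm38.p6) for 34741 of the remaining 34945. No detection calls were used, differences of dim genes can be compressed by background, and the number of arrays limits the precision.

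The comparison used limma 3.58.1 under R 4.3.3 (lmFit, eBayes with a trend, genotype only, two-sided, Benjamini-Hochberg adjustment over all 18193 genes). The members and lists were chosen with earlier results of these data known; the GC box and general E-box were added after the sequences were seen. Genes named by rule are the members, Insm1, up to 4 called genes of each list by lowest p, and the 3 most like a called member. They are 38 in all, of which 25 were called. Outside this rule, Cyp24a1, Rara, Fkbp5, Tsc22d3, Tat, Errfi1, Cpt1a, Arntl, Per1 and Dbp are list genes picked as examples. None of these was called with genotype only. Nr4a2 and the genes under other observations were named after their values were seen. Arrays of the same number deviated together in all 8 pairs (correlations of 0.24 to 0.73), so the numbers were taken to pair them. The labels do not say what arrays of the same number share. The main fit leaves this pairing out, and the fit with the replicate block uses it. Per the series' design text the islets came from 8 mutants and 8 controls of matched litters. Each p-value thus sets a difference against the spread between these preparations. In the main fit that spread includes the variation that arrays of the same number share. Alternatives were other scalings, filters, probe set means, weights, covariates, the replicate block and left-out arrays. On simulated data for this comparison with 18193 genes, 81 of 100 genes changed 1.5-fold and 99 of 100 changed 3-fold were recovered, and 6.74% of calls were false. The simulated noise was independent for each gene and array. It lacked the variation that real arrays of the same number share, so these rates need not hold for the real arrays.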

Additional observations from a re-analysis of the deposited data

Results flagged for a closer look

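Among the 38 named genes, 76 groups of 8 arrays were screened for a single array far from the rest, a screen that chance alone passes in about 1 of 20 groups, and 2 groups were marked. Thrb had 1 low mutant array, replicate 5, at 5.32 with the next at 5.46, a gap of 0.57 of the group's range. Tgm2 had 1 high mutant array, replicate 3, at 9.72 with the next at 9.05, a gap of 0.56 of the range. Without mutant replicate 5 the difference of Thrb was −0.09 (adjusted p = 0.483), and without mutant replicate 3 that of Tgm2 was 0.53 and called.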

How the results depend on the processing

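The fit with the replicate block called 3200 of all genes (17.6%), 2 of the 10 members (Vdr and Nr1d1, the latter at 0.38 as without it) and 38 of 173 list genes. The fit with genotype only called 1594 (8.76%), 1 and 25. List genes here are those of the 8 pathway lists and of the wider receptor family, without the 10 members. Besides Nr1d1 and Mfsd13a the block changed no call of the 38 genes named by rule. Without replicates 1, 2 and 3 of both groups 828 genes (4.55%), 0 members and 14 list genes were called, and Vdr was at −0.27. With fewer arrays in that fit, a lost call alone does not show a smaller difference. Adjusted for the immune-cell mean 0 members were called, with Vdr at −0.41. With the replicate block plus both the acinar and the immune-cell mean 3 genes and 0 members were called; Vdr was at −0.83 and Hnf4g turned to 0.058 (adjusted p = 0.565 and 0.987). That fit spends many terms on few arrays. Under quantile normalisation, median centring, no dim genes, probe set means, no trend, array weights and the acinar or Y-linked means, Vdr stayed called lower and no other member was called, though 3 dim members (Ppara, Rxrg and Thrb) were not tested without dim genes. Leaving out single arrays gave 1324 to 1645 called genes and differences of −0.51 to −0.37 for Vdr. Members near or below the array medians can hide changes that background can compress.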

Other observations

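Some further receptor genes and partners, named after their values were seen, were called with the replicate block but not with genotype only. These fits called 17.6% and 8.76% of all genes. Esr1, the estrogen receptor alpha gene, went from 12.67 in controls to 12.17 in mutants (−0.50 ± 0.17, limma adjusted p = 0.0767 with genotype only and 0.000627 with the block). Without pairs 1 to 3 its difference was −0.38 (adjusted p = 0.435), and the mean of its probe sets differed by −0.18 ± 0.07 (adjusted p = 0.124). What its probe sets read in islets that carry RIPcreER is not known from the labels. Nr2f1 differed by −0.24 ± 0.11 from a dim control mean of 5.34 (adjusted p = 0.19 and 0.0479). Ppargc1a, a coactivator of the estrogen-related receptors and of Ppara, read 6.17 and 7.21, a difference of 1.04 ± 0.33 (adjusted p = 0.0627 and 0.0207). It was also called without dim genes, with the mean of its probe sets and when adjusted for the immune-cell or the Y-linked mean (adjusted p = 0.0464, 0.0156, 0.023 and 0.0117), but not when adjusted for the acinar mean (adjusted p = 0.253). Among genes of fatty acid use, Plin2, which coats lipid droplets, differed by 0.34 ± 0.13 (adjusted p = 0.11 and 0.00731), Angptl4 by 0.36 ± 0.19 (0.287 and 0.0295) and the peroxisomal enzyme gene Ehhadh by −0.28 ± 0.10 (0.1 and 0.00356). Without pairs 1 to 3 none of the genes from Esr1 to Ehhadh was called (adjusted p from 0.192 for Ppargc1a to 0.633 for Nr2f1). Nr1h4, the bile acid receptor gene, differed by 0.68 ± 0.22 and was called neither with genotype only nor with the block (adjusted p = 0.0618 and 0.0593). It was called without dim genes, with array weights and when adjusted for the Y-linked mean (adjusted p = 0.0456, 0.0354 and 0.0121).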
